A study of Mus musculus with 28 samples.

Results

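Left ventricle of hearts that had lost Pkp2 and received the lower dose of the gene therapy vector TN-401 was compared with left ventricle of control hearts, to find which differences in gene expression remained after treatment. The comparison took all 4 left ventricle (LV) libraries whose sample title names the dose 3E13 and all 5 LV libraries titled WT and HBSS, 9 of the 28 libraries in the series, each from a different mouse. Both groups were C57BL6 mice with floxed Pkp2 alleles (Pkp2 fl/fl), and the study's methods give 3 to 10 months as the age of its animals. The 3E13 mice also carried αMyHC-Cre-ER(T2), a Cre recombinase driven by a cardiomyocyte promoter and switched on by tamoxifen, so that Pkp2 is deleted in cardiomyocytes and in no other cell of the heart. They received 3E13 vg/kg (vector genomes per kg) of TN-401, an adeno-associated virus (AAV9) with the human PKP2 gene, 1 week before tamoxifen, in a study of about 10 weeks. WT mice were littermates without Cre and received the buffer HBSS. The study's methods name tamoxifen for the Cre-positive mice and do not say whether WT mice received it. The groups therefore differ in Cre, in the deletion, in the vector and perhaps in tamoxifen together, and these cannot be told apart here. Treated mice given 6E13 vg/kg (3 LV libraries) and Cre-positive mice given buffer (cKO, 4 LV libraries) are set beside them where their values help. Nothing in the sources used here gives the time of day at which hearts were collected, or a collection time for the cKO mice alone. In other experiments of the study, cKO mice given buffer died earlier than the collection time it gives for this one. The cKO hearts may therefore differ from the others in time of collection.

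Plakophilin 2, the product of Pkp2, is a desmosome protein that anchors the junctions joining one cardiomyocyte to the next, and its loss causes arrhythmogenic cardiomyopathy. In a heart under strain, fibroblasts lay down collagen and other matrix proteins, cardiomyocytes turn on genes of the fetal heart such as the slow myosin Myh7 and the natriuretic peptides, and immune cells enter the tissue. Interferons induce a separate set of genes, among them the immunity-related GTPases and the genes that present antigen on MHC molecules. The circadian clock, a loop in which Arntl and its partners drive their own repressors, runs in cardiomyocytes too and gives many heart genes a daily rhythm.

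Estimated reads per library ran from 21013323 to 24237909 at 3E13 and from 23196687 to 39381176 in WT, so a gene with 0 counts may still have had up to 3 (counting error only). The 3E13 group held 2 males and 2 females and the WT group 2 males and 3 females. No pair of libraries within either group was a copy of another (chi-square per degree of freedom at least 17.9, where counting noise gives about 1). Ventricular cardiomyocyte markers were abundant in all 9 libraries (summed CPM 90640 to 111900 over 14 genes), while the atrial gene Sln had 0 counts in all of them and Myl7 fell below the low-count filter. Levels are given as CPM, the share of a library's counts scaled by TMM. A pair of LV libraries stood apart from their own groups. Over 9591 genes the typical distance from the rest of the group was 0.218 (log2) for 3E13 animal 182, against 0.122 to 0.131 for the other 3E13 libraries, and 0.384 for cKO animal 177, against 0.182 to 0.259 for the other cKO libraries. Both were kept, and counts without them are given beside the results.

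Pkp2 itself and the vector's transgene were read first. The mouse gene Pkp2, a protein-coding gene on the plus strand of chromosome 16 (16031144 to 16090586 in GRCm39), stood at 31.8, 44.9, 34.9 and 39.7 CPM at 3E13, in the order of animals 181, 182, 252 and 253, and at 117, 110, 121, 111 and 103 CPM in WT animals 248, 626, 636, 637 and 647. The groups did not overlap, and the log2 fold change was -1.57 ± 0.15 (SE, adjusted p = 1.15e-04, edgeR's quasi-likelihood test with Benjamini-Hochberg adjustment). Since the deletion is made in cardiomyocytes alone, mouse reads that remain can come from other cells, from undeleted alleles or from human reads given to the mouse gene, and their part was not tested. The human transgene had 0 counts in every WT library. It reached 352, 167, 302 and 364 CPM in the 3E13 libraries, each at least 1178-fold higher than the limit set by 3 counts in a WT library. Per transcript length, mouse Pkp2 stood at 34.4 ± 3.32 TPM in WT (SD, n = 5) and 13.3 ± 1.20 TPM at 3E13 (n = 4), where the transgene stood at 101 ± 33.7 TPM with a lowest value of 51.6 TPM. Animal 182 thus had the least transgene on either scale. Esr1, read because Cre-ER(T2) holds part of an estrogen receptor, stood at 3.21 to 4.46 CPM at 3E13 and 1.47 to 2.09 CPM in WT (1.11 ± 0.21, adjusted p = 0.0116). Whether its reads came from the construct was not tested.

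In the whole comparison 411 of 16410 genes were called (2.50%), 324 higher at 3E13 (1.97%) and 87 lower (0.530%). Among the higher genes were members of the lists for extracellular matrix, the fetal heart programme, interferon, antigen presentation, macrophages and T cells, and the fall with the largest fold change was that of the clock gene Dbp. The median of all genes was 0.01. Counts of called genes in the lists below stand against these shares, and a single call is not read as a result about its list. The threshold was an adjusted p of 0.05 in a fit of all 16 LV libraries, and 2716 genes had an unadjusted p under 0.05. The count depends strongly on which libraries set the estimate of the spread. It rose to 1460 (858 higher, 602 lower) without cKO animal 177, a library that is in neither group, and to 1776 (1009 and 767) when only the 9 libraries were fitted. Of the 411 genes, 410 and 402 were among those. On log2(TPM + 1) the split was 139 higher and 13 lower.

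**Figure D1:**
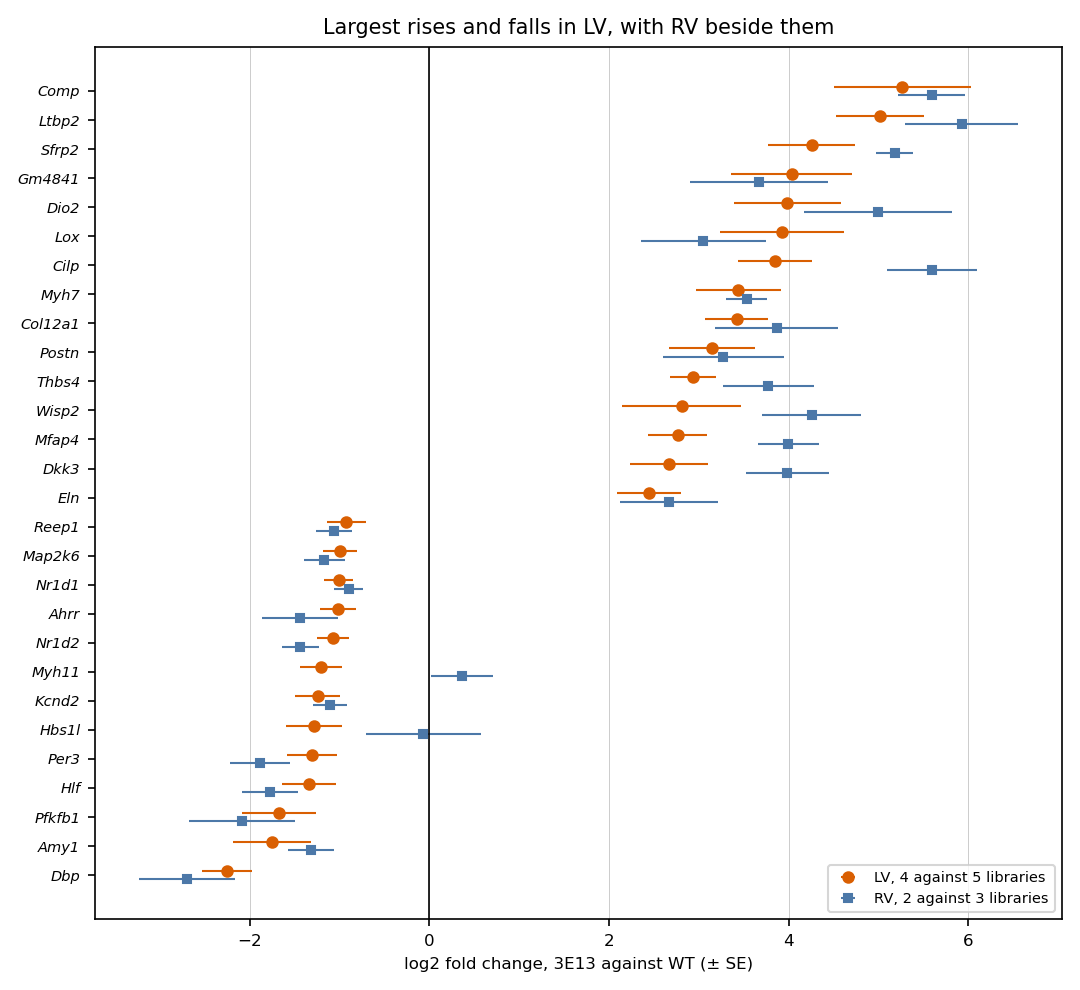
Log2 fold changes of 3E13 against WT (horizontal axis, ± SE) for the 15 largest rises and 13 of the 15 largest falls in LV among called genes whose groups did not overlap and whose mean over the 9 libraries reached 5 CPM. Circles are LV and squares are RV (right ventricle), where RV holds 2 and 3 libraries. Comp leads at 5.27 in LV, Dbp is lowest at -2.25, and Myh11 and Hbs1l have RV values near or above 0.

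The 15 largest rises were mostly genes of secreted matrix proteins. Comp, cartilage oligomeric matrix protein, led with 46.2, 17.7, 26.9 and 20.7 CPM at 3E13 against 0.405 to 1.07 CPM in WT (5.27 ± 0.76, adjusted p = 0.00191). Ltbp2, a protein of microfibrils, stood at 74.3, 57.3 and 46.6 CPM in animals 181, 252 and 253 and higher still in animal 182, against 1.32, 1.52, 4.38, 1.84 and 1.56 CPM (5.02 ± 0.49, adjusted p = 1.15e-04). Every 3E13 library thus held at least 10 times the CPM of any WT library for these genes. Sfrp2, which binds Wnt proteins outside the cell, rose by 4.26 ± 0.48, Cilp, a cartilage matrix protein, by 3.85 ± 0.41, and Dio2, the deiodinase that activates thyroid hormone, by 3.99 ± 0.60, with adjusted p from 1.75e-04 to 0.00252. Gm4841, Lox, Myh7, Col12a1, Postn, Thbs4, Wisp2, Mfap4, Dkk3 and Eln made up the rest. Wisp2 lost its call without any 1 of 7 libraries (3E13 181, 182 or 252, WT 248, 626, 637 or 647).

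The largest falls were smaller. The clock output gene Dbp led (-2.25 ± 0.28, adjusted p = 6.66e-04), followed by Amy1, an amylase (-1.75 ± 0.43, adjusted p = 0.0436), and Pfkfb1, an enzyme that sets the level of a glycolysis activator (-1.67 ± 0.41, adjusted p = 0.0444). Pfkfb1 stood at 4.17, 5.78, 3.85 and 4.81 CPM at 3E13 against 11.8 to 19.3 CPM in WT. The calls of Amy1 and Pfkfb1 were lost when nearly any library was left out (11 and 12 of 18 alternatives, respectively, including log2(TPM + 1)).

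Matrix genes were the largest group. Of 42 matrix proteins, cross-linking enzymes and turnover genes 30 were called, all higher, with a median of 1.64, and of 19 collagen genes 11 were called, all higher, with a median of 1.55. Of all genes tested 1.97% were called higher. All 61 had fold changes above 0. When 1 of the 9 libraries was left out, 20 (without WT 626) to 29 matrix proteins and 7 (without WT 248, WT 626 or 3E13 181) to 12 collagens were called. The counts were 37 and 15 without cKO 177, and 20 and 5 on log2(TPM + 1). The study assayed Col1a1, Col3a1, Timp1, Nppa and Nppb by RT-qPCR in other experiments, with another dosing time or another vector. It also described heart failure and fibrosis genes from the RNA sequencing of this experiment, so their direction here is not independent evidence.

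Among the fibrillar collagens, Col1a1 stood at 304, 433, 220 and 168 CPM at 3E13 against 67.0, 57.3, 85.5, 70.9 and 75.2 CPM in WT (1.98 ± 0.41, adjusted p = 0.0181). Col3a1 stood at 544, 723, 408 and 350 CPM against 112 to 166 CPM (1.88 ± 0.35, adjusted p = 0.00989). In both genes the lowest 3E13 library lay above the highest WT library, and animal 182 was highest. The call of Col1a1 was lost without 3E13 181 or 182 or WT 248 or 626 and on log2(TPM + 1). Col12a1, which coats collagen fibrils, rose from 1.66 to 18 mean CPM (3.42 ± 0.35, adjusted p = 1.49e-04). Col8a2, a short-chain collagen, rose by 4.10 ± 0.66, and Col18a1, a basement membrane collagen, had the smallest value in the list (0.17 ± 0.21, adjusted p = 0.76).

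Cross-linkers and fibre proteins rose beside the collagens. Lox, lysyl oxidase, which joins collagen and elastin chains by cross-links, stood at 26.6, 127, 20.4 and 10.8 CPM at 3E13 against 2.06 to 4.50 CPM in WT (3.93 ± 0.69, adjusted p = 0.00717). Eln, elastin itself, stood at 39.4, 32.1, 29.3 and 22.8 CPM against 3.78 to 8.15 CPM (2.44 ± 0.36, adjusted p = 0.00203). Mfap4 and Mfap5, proteins of the elastic microfibrils, rose by 2.77 ± 0.33 and 2.37 ± 0.30. Lox in animal 182 lay far above the other 3E13 libraries, while Eln was spread evenly among them.

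Matricellular genes, whose products signal to cells from the matrix, included Postn, periostin, at 204, 390, 165 and 129 CPM against 20.4 to 35.2 CPM (3.15 ± 0.48, adjusted p = 0.00268). Thbs4, a thrombospondin, had the smallest adjusted p of the list at 32.7, 20.2, 23.7 and 18.9 CPM against 2.36 to 3.83 CPM (2.94 ± 0.26, adjusted p = 5.52e-05). Bgn, the proteoglycan biglycan, was the most abundant of these, at 655, 798, 697 and 566 CPM against 218 to 257 CPM (1.57 ± 0.16, adjusted p = 1.34e-04). Thbs2, a thrombospondin like Thbs4, stood at 32.4 ± 7.61 CPM at 3E13 (SD, n = 4) and 31.6 ± 2.88 CPM in WT (n = 5), a difference of 0.04 ± 0.18. Of the turnover genes, Timp1, an inhibitor of matrix proteases, rose by 3.95 ± 0.89 (adjusted p = 0.0296, lost in 9 of 18 alternatives), and the protease Mmp2 stood at 61.6 to 86.3 CPM against 26.4 to 37.7 CPM (1.10 ± 0.29, adjusted p = 0.0553), just short of a call. Spp1, osteopontin, had the largest fold change of the list and was not called (5.56 ± 1.83, adjusted p = 0.13), with 0.655 to 11.5 CPM at 3E13 and at most 0.193 CPM in WT.

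**Figure D2:**
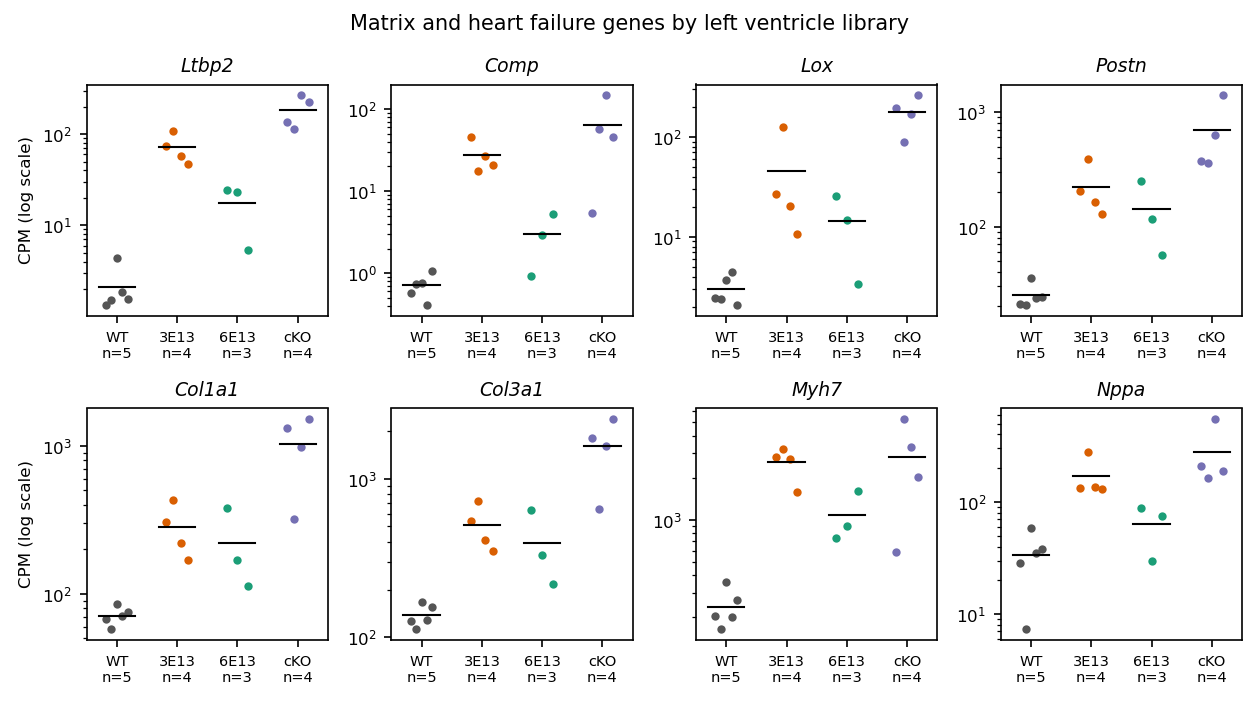
Levels of 8 genes in each LV library (CPM, logarithmic vertical axis, scaled for each gene) by group, where dots are libraries and the bar is the group mean. The 3E13 dots lie above all WT dots in every panel, Lox and Nppa each have 1 high 3E13 library (animal 182), and 6E13 and cKO are shown beside them. Ltbp2, Comp, Lox, Postn and Myh7 were picked among genes whose groups did not overlap, so that rule fixed their separation.

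Genes of TGF-β signalling and activated fibroblasts were called in 7 of 20 cases, all higher (1.97% of all genes were), with a median of 0.54. The count was 3 without 3E13 181, 4 without WT 248, WT 626, WT 637 or 3E13 252, and 2 on log2(TPM + 1). The rises were small for the receptor Tgfbr2 (66.2 to 77.6 CPM against 47.7 to 57.2 CPM, 0.49 ± 0.07, adjusted p = 0.00231) and for Skil, a repressor that TGF-β induces (50.3 to 55.2 CPM against 30.9 to 36.2 CPM, 0.59 ± 0.08, adjusted p = 0.00191). They were larger for Meox1, a transcription factor of activated fibroblasts (2.01 ± 0.30, adjusted p = 0.0026), and for the ligand Tgfb3 (1.32 ± 0.26, adjusted p = 0.0134). The myofibroblast and smooth muscle genes Acta2 and Tagln had fold changes of -0.66 ± 0.32 and -0.86 ± 0.26, neither of them called (adjusted p = 0.319 and 0.0935). Lrrc15 had the lowest value in the list (-0.89 ± 0.47, adjusted p = 0.362) and Cthrc1 the highest (5.93 ± 1.53, adjusted p = 0.0533), at no more than 3.21 CPM. In bulk tissue, more or fewer cells of a type and more or less RNA per cell cannot be told apart. Resting fibroblast markers summed to 676 to 1183 CPM at 3E13 and 734 to 946 CPM in WT, ranges that overlap, and 2 of 12 were called, Mfap5 and Pi16 (1 when any of the 9 libraries but WT 636 or 3E13 253 was left out). Pdgfra, a fibroblast receptor, stood at 58.0 to 71.5 CPM against 41.1 to 54.0 CPM (0.42 ± 0.11, adjusted p = 0.0552).

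Among 15 heart failure and fetal genes 5 were called, all higher (1.97% of all genes were), with a median of 0.99. Myh7, the slow myosin heavy chain of the fetal ventricle, stood at 2800, 3220, 2720 and 1580 CPM at 3E13 against 203, 163, 356, 200 and 266 CPM in WT (3.44 ± 0.47, adjusted p = 0.00157). Nppa, atrial natriuretic peptide, stood at 133, 279, 137 and 130 CPM against 28.5, 7.29, 58.3, 34.8 and 37.9 CPM (2.35 ± 0.50, adjusted p = 0.0225). All 3E13 libraries lay above all WT libraries for both, which for Myh7 was a condition of its place among the largest rises. Ctgf, a matricellular growth factor, rose by 1.92 ± 0.25 (adjusted p = 9.70e-04) and Uchl1, a deubiquitinating enzyme, by 1.71 ± 0.37 (adjusted p = 0.0232). Ankrd1, a stretch-responsive sarcomere protein and the fifth called gene, rose by 1.27 ± 0.30 (adjusted p = 0.0369). Nppb, the B-type natriuretic peptide, stood at 168 to 268 CPM against 38.4 to 139 CPM and was not called (1.39 ± 0.36, adjusted p = 0.0564). The list had 2 calls without WT 248 or WT 647, 3 without WT 626, WT 637 or 3E13 182, and 8 without cKO 177. Nppa lost its call without WT 248, WT 637, WT 647 or 3E13 182, Uchl1 in 5 alternatives and Ankrd1 in 7. The adult fast myosin Myh6 did not fall with the rise of Myh7 beyond its error (12500 to 16200 CPM against 15200 to 17300 CPM, -0.20 ± 0.27, adjusted p = 0.781). Nppa and Dkk3 are also on the list of atrial muscle markers, where they were the 2 called genes of 6 (1 without WT 248, WT 637, WT 647 or 3E13 182).

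The lists for desmosome, sarcomere and calcium handling, which do not hold Myh7 or Ankrd1, had no call. Of 6 other genes of the desmosome and its filaments and 26 sarcomere genes 0 were called by edgeR, with medians of -0.03 and -0.08, and of 17 calcium handling genes 0, with a median of -0.21. At an unadjusted p under 0.05 stood 1, 2 and 2 of them, DESeq2 called 0, 1 and 0, and the 9-library fit 0, 3 and 3. Over all genes these counts were 2716 of 16410, 982 of 16359 and 1776 of 14894. Desmoplakin, Dsp, stood at 1650 to 2110 CPM at 3E13 and 1570 to 2010 CPM in WT (0.05 ± 0.19), and plakoglobin, Jup, at 178 to 234 CPM and 214 to 230 CPM (-0.09 ± 0.10). Gja1, the main gap junction protein of the ventricle, stood at 496 to 689 CPM and 613 to 686 CPM (-0.12 ± 0.17, adjusted p = 0.812). The calcium pump Atp2a2 stood at 7050, 8460, 7440 and 8260 CPM against 9970 to 12000 CPM, groups that do not overlap, with -0.46 ± 0.25 and an adjusted p of 0.391. The kinase Mylk4 had the lowest value of the sarcomere list (63.8 to 88.2 CPM against 167 to 253 CPM, -1.39 ± 0.40, adjusted p = 0.084). Desmosome and sarcomere medians turned to 0.13 and 0.04 on log2(TPM + 1), on which the median of all genes moved from 0.01 to 0.10.

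Ion channel genes were mostly lower, with 18 of 23 below 0 and a median of -0.28. Where 0.530% of all genes were called lower, 1 of them was called. This was Kcnd2, a subunit of the fast transient outward potassium current, at 17.6, 11.2, 15.9 and 23.5 CPM at 3E13 against 47.8, 53.4, 29.5, 34.8 and 36.7 CPM in WT (-1.24 ± 0.25, adjusted p = 0.0155). The call was lost without 3E13 181 or 252 or WT 626. The modulatory subunit Kcnv2 had a larger fold change that was not called (2.94 to 6.61 CPM against 9.88 to 17.4 CPM, -1.59 ± 0.44, adjusted p = 0.0715), as did not Kcnj3, a channel opened by acetylcholine signalling (-0.97 ± 0.30, adjusted p = 0.102). Fitted without cKO 177, 6 ion channel genes were called lower, and with the 9 libraries alone 9 were lower and 1 higher. Over all genes 602 of 16209 and 767 of 14894 were called lower in these fits.

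Genes of energy metabolism leaned the same way without a call in the fit of 16 libraries. Of 32 fatty acid genes 31 were below 0 (median -0.51), of 35 nuclear oxidative phosphorylation genes 34 (median -0.26), and of 23 genes for the citric acid cycle or mitochondrial biogenesis 22 (median -0.27). In 18, 16 and 11 of them the groups did not overlap and 3E13 was lower, whereas 6.26% of all genes were so placed. Acaa2, a thiolase of fatty acid oxidation, stood at 177, 125, 153 and 193 CPM at 3E13 against 255 to 306 CPM in WT (-0.82 ± 0.24, adjusted p = 0.0903). Cpt2, which releases fatty acids inside the mitochondrion, stood at 44.4 to 92.4 CPM against 110 to 137 CPM (-0.72 ± 0.24, adjusted p = 0.129). Here the choice of libraries decides the count: in the 9-library fit 19, 16 and 10 genes of these lists were called, all lower, and without cKO 177 the counts were 12, 12 and 10. DESeq2 called 2, 0 and 2, and 10, 5 and 5 had an unadjusted p under 0.05. Over all genes, 767 of 14894 were called lower in the 9-library fit and 602 of 16209 without cKO 177. DESeq2 called 312 of 16359 lower, and 2716 of 16410 had an unadjusted p under 0.05. The counts of 5 of 35 and 5 of 23 are near that last share and are not read as results about their lists. Pfkp, the platelet form of phosphofructokinase, was the 1 called gene of 20 in glucose and ketone use, at 68.9 to 106 CPM against 30.9 to 43.2 CPM (1.13 ± 0.16, adjusted p = 0.00157).

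The share of counts from the mitochondrial genome was lower too. It was 30.1, 31.2, 30.1 and 32.0% at 3E13 and 33.5, 37.0, 33.7, 36.4 and 36.6% in WT, so that every 3E13 library lay below every WT library. The mean difference was -4.57 percentage points (30.9% ± 0.921, SD, n = 4, against 35.4% ± 1.70, n = 5), and the exact permutation test over libraries (two-sided) gave p = 0.00794, the smallest that the design allows. Of its 13 protein genes 0 were called singly by edgeR (2 had an unadjusted p under 0.05, and DESeq2 called 0), and 12 were below 0. The 9-library fit called 3 of them lower and the fit without cKO 177 called 1, where 767 of 14894 and 602 of 16209 genes were called lower. Some of these share near-identical copies in the nuclear genome, and mt-Co2 ran from 731 to 23400 CPM among WT libraries, so the shares of single genes are uncertain.

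Interferon-inducible genes were the next group. Of 16 immunity-related GTPases and guanylate binding proteins all 16 were above 0 (median 1.09) and 5 were called higher, Irgm1, Igtp, F830016B08Rik, Gm4951 and Irgm2. Of all genes 1.97% were called higher. The count in this list was 3 without WT 626 and 8 without cKO 177. These GTPases attack the vacuoles of intracellular microbes, and several stand at a pair of places on chromosome 11. They are shown here with their promoters, since those of 4 of them and of their neighbour Gm12185 share a pair of motifs. No other promoter in RefSeq's table has the pair at the same spacing and in the same order along the gene's strand. The motif TTCNNNGAA, a form known as the GAS element, starts 11 bases before a second motif, GAAA followed by any 2 bases and GAAA again, or its complement (TTTC, 2 bases, TTTC), the form bound by interferon regulatory factors (an ISRE element). Each line gives the gene, the place in GRCm38.p6 and the sequence, 5′ to 3′ on the gene's strand, with both motifs in capitals.
Igtp, chr11:58199499-58199543, plus strand: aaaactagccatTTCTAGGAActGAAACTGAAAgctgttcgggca
Irgm2, chr11:58214890-58214934, plus strand: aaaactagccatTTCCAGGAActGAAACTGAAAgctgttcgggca
Tgtp1, chr11:48992302-48992346, minus strand: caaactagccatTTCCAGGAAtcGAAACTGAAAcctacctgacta
Tgtp2, chr11:49064261-49064305, minus strand: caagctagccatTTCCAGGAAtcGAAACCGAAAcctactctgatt
Gm12185, chr11:48927236-48927280, minus strand: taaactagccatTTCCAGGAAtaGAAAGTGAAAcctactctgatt
Irgm1, chr11:48871418-48871462, minus strand: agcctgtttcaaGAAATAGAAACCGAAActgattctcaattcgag
B2m, chr2:122147536-122147580, plus strand: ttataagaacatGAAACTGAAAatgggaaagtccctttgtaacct

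Irgm1 holds overlapping copies of the second motif without the first, and so does B2m with a single copy, where capitals mark that motif alone. In the table of 32851 promoters (each 300 bases, 250 before the start site and 50 after), 8.30% hold the first motif and 3.44% the second on either strand. Both stand at this spacing and in this order in 5 promoters (0.0152%), those of the first 5 lines. The opposite order, with the second motif before the first, was not searched. Of the 17 listed GTPases 10 had a promoter in the table, and 9 of these held the second motif. The pair was noticed in these promoters and then counted, the 5 promoters resemble each other around the motifs, and a match of letters is a description and not a site. As the genes are close relatives, reads may also be shared among them, which makes single values uncertain.

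The 5 genes with the pair differed in their values. Igtp, a protein-coding gene on the plus strand of chromosome 11 (58089840 to 58098417 in GRCm39), stood at 42.8, 22.4, 22.1 and 73.2 CPM at 3E13 against 7.94, 8.12, 14.2, 8.73 and 16.5 CPM in WT (1.85 ± 0.35, adjusted p = 0.0121). Irgm2 stood at 66.9, 40.0, 43.7 and 106 CPM against 16.8 to 42.8 CPM (1.30 ± 0.33, adjusted p = 0.048), a call lost in 10 of 18 alternatives. Gm12185, which is on no list, stood at 11, 2.89, 6.36 and 24.7 CPM against 0.36 to 3.13 CPM (2.86 ± 0.68, adjusted p = 0.0389, lost in 9 of 18). Tgtp2 and Tgtp1 were not called (0.87 ± 0.40 and 0.52 ± 0.48, adjusted p = 0.294 and 0.659). Irgm1, with the second motif alone, was the firmest of the group at 37.2, 37.3, 27.0 and 56.6 CPM against 13.7 to 18.8 CPM (1.30 ± 0.20, adjusted p = 0.00347), and kept its call in all 18 alternatives. Animal 253 was highest for all 6 of these genes. Irgm2, Tgtp1, Tgtp2 and Gm12185 were named after their values were seen.

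In cKO hearts, which had lost Pkp2 and had no vector, these genes were not higher than in WT. Igtp stood at 5.01, 7.01, 8.64 and 6.25 CPM there (-0.73, adjusted p = 0.134) and Irgm1 at 13.7 to 21.8 CPM (0.18, adjusted p = 0.522). At 6E13 Igtp stood at 46.5, 23.1 and 26.3 CPM (1.52, adjusted p = 0.249) and Irgm1 at 38.8, 27.4 and 23.6 CPM (0.90, adjusted p = 0.228). The list's median was 1.09 at 3E13, 0.61 at 6E13 and -0.50 in cKO, where 3 members were called lower. These comparisons share the WT libraries. Gm4841, a relative among the 15 largest rises, stood at 3.84 to 39.8 CPM at 3E13, at 10.8 to 30.7 CPM at 6E13, at no more than 1.38 CPM in cKO and at 0.164 to 2.12 CPM in WT (3E13 against WT 4.03 ± 0.68, adjusted p = 0.00554).

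**Figure D3:**
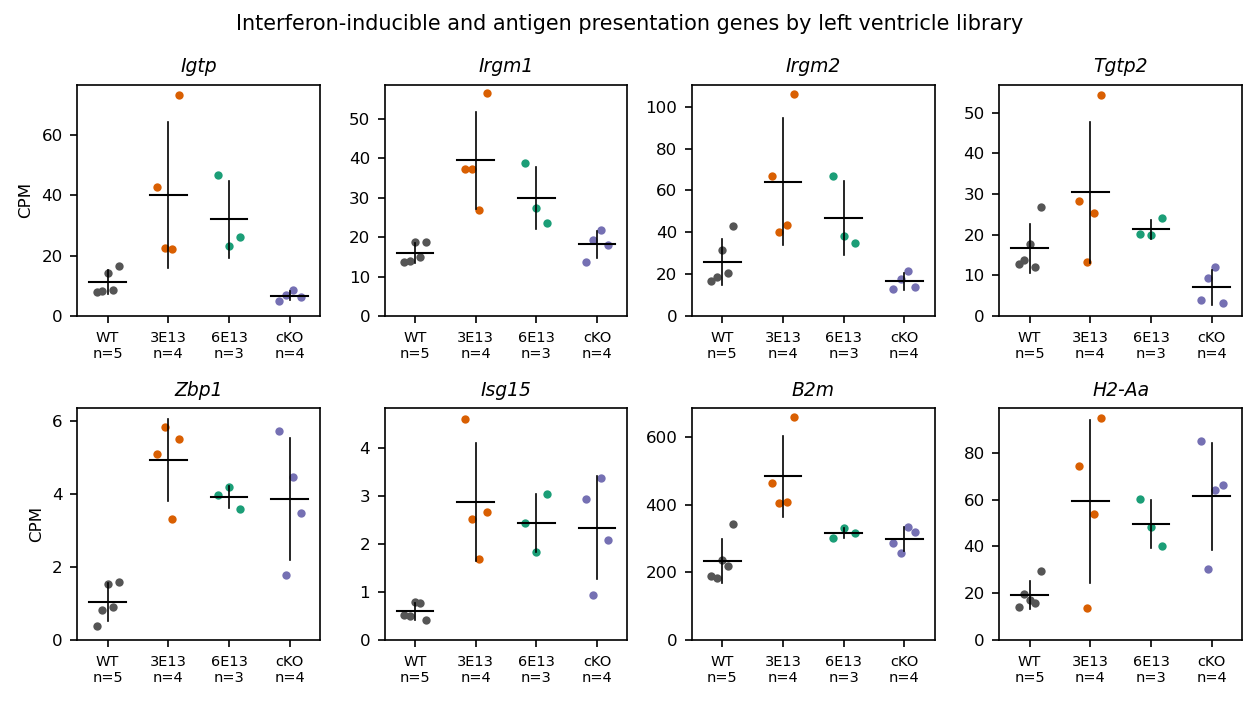
Levels of 8 interferon-inducible or antigen presentation genes in each LV library (CPM, vertical axis linear from 0, scaled for each gene) by group, where dots are libraries and bars the mean ± SD. For Igtp the 3E13 and 6E13 libraries lie at 22.1 CPM or more and the WT and cKO libraries at 16.5 CPM or less, whereas Isg15 and H2-Aa reach levels in cKO libraries that WT libraries do not.

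The wider interferon response, 33 genes of signalling and stimulated genes, was above 0 throughout (median 0.79). In it 11 were called higher, against 1.97% of all genes. Isg15, a ubiquitin-like protein, stood at 4.62, 2.52, 1.70 and 2.67 CPM at 3E13 against 0.419 to 0.798 CPM in WT (2.25 ± 0.38, adjusted p = 0.00577). Zbp1, a sensor of nucleic acids, rose by 2.22 ± 0.37 (adjusted p = 0.00554), and Ifit3 and Ifit1, antiviral RNA-binding proteins, by 1.52 ± 0.31 and 1.18 ± 0.24 (adjusted p = 0.0157 and 0.0186). In cKO hearts 16 of the 33 were called higher (median 0.61), Isg15 among them (1.96, adjusted p = 0.00105), where 3236 of all 16410 genes were. The list had 2 calls without WT 248, WT 626 or 3E13 181, 4 without 3E13 182, 6 without WT 637, 7 on log2(TPM + 1) and 15 without cKO 177. Isg15 kept its call in each of these.

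Of 18 MHC class I genes, which present antigen from inside the cell, 5 were called, all higher (1.97% of all genes were), with a median of 0.67. The count was 3 without WT 248, WT 626, 3E13 181 or 3E13 253 and 8 without cKO 177, and H2-K1 and H2-T23 lost their calls in 9 and 4 alternatives. B2m, the light chain of class I molecules, stood at 465, 404, 408 and 660 CPM at 3E13 against 189, 183, 238, 219 and 344 CPM in WT (1.05 ± 0.18, adjusted p = 0.00713). The heavy chains H2-D1, H2-T22, H2-T23 and H2-K1 rose by 0.89 to 1.04, with adjusted p from 0.0109 to 0.0405, and reads may be shared between these similar genes. B2m in every 3E13 library lay above every WT library, with WT animal 647 the nearest. In cKO B2m stood at 257 to 334 CPM (0.35, adjusted p = 0.153), with a list median of 0.06.

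Class II genes, which antigen-presenting cells use, were called higher in 4 of 10 cases (median 1.56), against 1.97% of all genes. They were Ctss, the protease cathepsin S, H2-DMb1, H2-Aa and Cd74, the invariant chain. H2-Aa stood at 74.3, 13.7, 53.9 and 94.8 CPM at 3E13 against 14.3, 19.7, 17.0, 15.8 and 29.6 CPM in WT (1.62 ± 0.41, adjusted p = 0.0488), and Cd74 at 208, 47.8, 156 and 250 CPM against 44.7 to 83.2 CPM (1.51 ± 0.38, adjusted p = 0.0497). Animal 182 lay below all WT libraries for H2-Aa and within their range for Cd74. The class II list had 5 calls without animal 182, but 0 without WT 248, WT 626 or 3E13 181 and on log2(TPM + 1), 1 without WT 637, and 2 without WT 636, 3E13 252 or 3E13 253, with RLE scaling or with sex as a covariate. H2-Aa and Cd74 lost their calls in 11 and 12 alternatives. In cKO 7 of the 10 class II genes were called higher (median 1.60), where 3236 of all 16410 genes were.

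Of 21 T, NK and B cell markers 5 were called higher (median 2.00), against 1.97% of all genes. They were Nkg7, Cd8b1, Ccl5, Trbc2 and Cd3e, all at low levels. Nkg7, a granule protein of cytotoxic cells, stood at 1.36, 0, 1.22 and 2.05 CPM at 3E13 against 0 to 0.0762 CPM in WT (adjusted p = 0.0166), and Cd3e, a chain of the T cell receptor complex, at 2.1, 0.421, 1.99 and 3.37 CPM against 0.189 to 0.738 CPM (2.00 ± 0.50, adjusted p = 0.0457). The summed list ran from 10.0 to 41.0 CPM at 3E13 and from 9.55 to 15.6 CPM in WT, with animal 182 at the low end. Of 29 listed markers 8 were too low to test, among them the granzymes Gzma and Gzmb. The B cell genes Ms4a1 and Cd79a were tested and not called. The list had 0 calls without WT 626 and on log2(TPM + 1), 1 without WT 248, 3E13 181 or 3E13 252, 2 without WT 636, WT 637, WT 647 or 3E13 253, 9 without animal 182, 8 without cKO 177 and 11 with DESeq2. Cd3e lost its call in 12 alternatives, Trbc2 in 9 and Nkg7 in 3. In cKO 10 of the 21 markers were called higher (median 1.32), where 3236 of all 16410 genes were.

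Macrophage and monocyte markers were called in 6 of 23 cases, all higher (median 1.12), against 1.97% of all genes called higher. Their summed level was 383.5 to 488.3 CPM at 3E13 and 188.5 to 233.3 CPM in WT, with no overlap. The complement genes C1qa, C1qb and C1qc, which tissue macrophages make, rose by 1.13 ± 0.18, 1.30 ± 0.19 and 1.06 ± 0.20. C1qb stood at 41.6, 33.3, 36.5 and 34.9 CPM at 3E13 against 13.8 to 16.3 CPM in WT (adjusted p = 0.00238). Lgals3, galectin 3 of activated macrophages, rose by 2.65 ± 0.54 (adjusted p = 0.0172). All 3 C1q genes kept their calls in every alternative, whereas Lgals3 lost it in 3. The list had 3 calls without WT 248 or 3E13 181 and on log2(TPM + 1), 13 without cKO 177 and 16 in the 9-library fit. Among chemokines, cytokines and innate sensors 7 of 29 were called higher (median 1.12), against 1.97% of all genes. Ccl8, a chemokine that attracts monocytes, stood at 1.58 to 2.42 CPM against 0.164 to 0.458 CPM (2.95 ± 0.52, adjusted p = 0.00713). Cfb, a complement factor, rose by 2.55 ± 0.49. C4b, another, stood at 54.7, 152, 32.3 and 27.3 CPM against 9.83 to 21.9 CPM (2.19 ± 0.51, adjusted p = 0.035). The list had 2 calls without WT 248, WT 637, WT 647, 3E13 181 or 3E13 182, and 3 without WT 626 or 3E13 252 and on log2(TPM + 1), and C4b lost its own in 7 alternatives. C4b and Cfb were highest in animal 182 and the interferon-inducible GTPases in animal 253. In cKO 18 of the 23 macrophage and monocyte markers (median 2.16) and 19 of the 29 chemokines, cytokines and sensors (median 1.83) were called higher. Of all 16410 genes 3236 were. The part of immune cells in the interferon and MHC values was not tested.

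Clock genes made up the clearest fall. Of 18 clock genes 5 were called, all lower, with a median of -0.44, against 0.530% of all genes. Dbp, a transcription factor at the output of the clock, stood at 13.7, 15.1, 7.62 and 8.17 CPM at 3E13 against 58.0, 57.1, 50.3, 39 and 60.6 CPM in WT. The repressors Nr1d1 and Nr1d2 (REV-ERBα and β) fell by 1.01 ± 0.17 and 1.08 ± 0.18 on the log2 scale (adjusted p = 0.00464 and 0.00472). Per3, a period gene, stood at 18, 30.4, 9.85 and 14.8 CPM against 32.4 to 55.4 CPM (-1.31 ± 0.28, adjusted p = 0.0202), and Hlf, a relative of Dbp, at 15.9 to 19.5 CPM against 36.2 to 57.7 CPM (-1.34 ± 0.30, adjusted p = 0.0276). The groups did not overlap in these 5 genes, which was a condition of their place among the largest falls. Of the 18 clock genes, 7 lower and 3 higher had no overlap, against 6.26% and 7.29% of all genes. Dbp, Nr1d1 and Nr1d2 kept their calls in all 18 alternatives, Per3 lost it in 6 and Hlf in 8. The list had 3 calls without WT 626, WT 647, 3E13 252 or 3E13 253, and 8 lower and 1 higher without cKO 177.

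Genes of the opposite phase were higher and not called. Npas2, a partner of Arntl, stood at 9.04, 6.73, 15.6 and 16.9 CPM against 2.71 to 6.52 CPM (1.49 ± 0.38, adjusted p = 0.0524). Arntl, the gene of BMAL1 and named after its values were seen, stood at 17.7, 6.31, 22.4 and 18 CPM against 2.13, 2.83, 8.92, 10.6 and 4.50 CPM (1.47 ± 0.50, adjusted p = 0.141). The 3E13 library inside the WT range was that of animal 182, and without it 6 clock genes were called lower and 1 higher. Dbp and Hlf bind the D-box, TTATGNAA (searched on both strands), and the Per3 promoter holds it at 2 places, as 0.161% of all promoters do, where 3.38% hold it at least once. Promoters of the other clock genes are not shown, and a match of letters is a description and not a site. Whether Dbp or Hlf acts on Per3 was not tested. The stretch is printed with these matches in capitals.
Per3, chr4:151044810-151044876 (GRCm38.p6, minus strand): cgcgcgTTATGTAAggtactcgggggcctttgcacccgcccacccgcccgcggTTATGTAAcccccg

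At 6E13 the clock genes stood at WT levels, with Dbp at 65.2, 57.6 and 60.1 CPM (0.20, adjusted p = 0.995) and Arntl at 2.63 to 4.36 CPM. In cKO Dbp stood at 12.2, 20.3, 21.9 and 8.24 CPM (-1.76, adjusted p = 2.13e-04). Of the 16410 genes, 2 (0.0122%) differed between the doses in LV, both higher at 6E13, and Dbp was one of them (2.45 ± 0.30, adjusted p = 0.0098). The other was Coq10b, a mitochondrial protein of the coenzyme Q pathway (0.89, adjusted p = 0.032), which was lower at 3E13 than in WT (15.2 to 17.0 CPM against 21.6 to 28.8 CPM, -0.59 ± 0.11, adjusted p = 0.013). The clock genes rise and fall through the day, and the part of the time of collection was not tested.

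**Figure D4:**
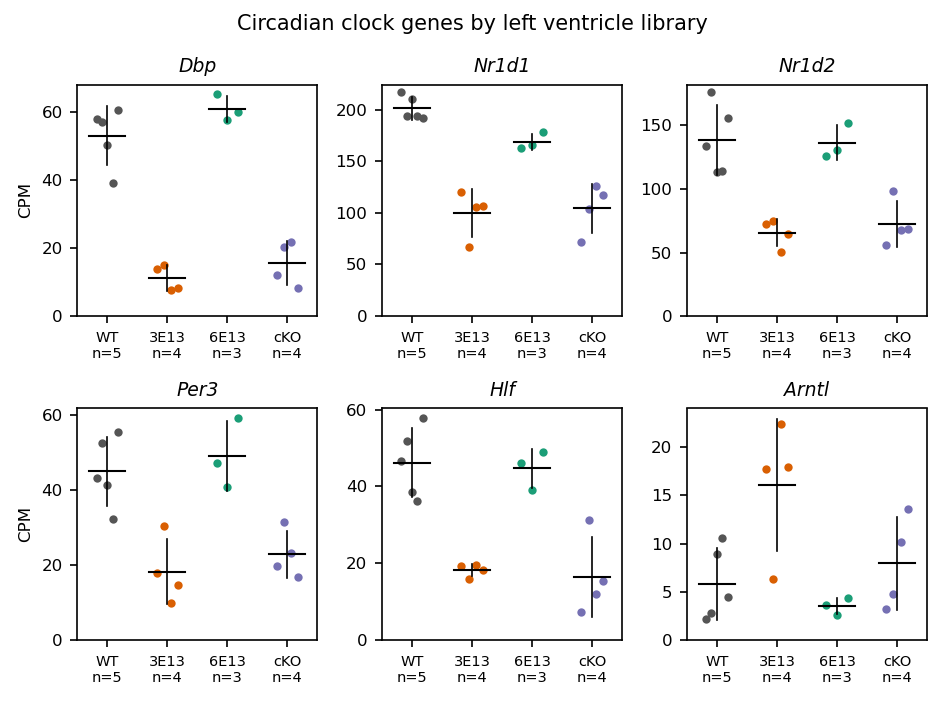
Levels of 6 circadian clock genes in each LV library (CPM, vertical axis linear from 0, scaled for each gene) by group, where dots are libraries and bars the mean ± SD. For Dbp the 3E13 libraries lie at 15.1 CPM or less and the WT and 6E13 libraries at 39 CPM or more, and Arntl is higher in 3 of the 4 3E13 libraries than in any WT library.

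Among smooth muscle genes Myh11, the smooth muscle myosin, stood at 23.6, 12.9, 12.9 and 21.4 CPM at 3E13 against 29.6 to 52.4 CPM in WT (-1.21 ± 0.23, adjusted p = 0.0118) and Smtn, smoothelin, at 76.3 to 91.0 CPM against 96.6 to 115 CPM (-0.36 ± 0.08, adjusted p = 0.0299). They were the 2 called of 12 smooth muscle and pericyte markers (1 without WT 248, WT 626, WT 647, 3E13 182, 3E13 252 or 3E13 253), against 0.530% of all genes called lower. Of the 12 markers 9 were below 0 (median -0.36). The sum of the list was 2632 to 3164 CPM at 3E13 and 2679 to 2897 CPM in WT, but Des alone held 1130 to 2040 CPM of it at 3E13. Among the remaining large falls were Ahrr, a repressor of the aryl hydrocarbon receptor (-1.02 ± 0.20), Map2k6, a kinase of the p38 pathway (-1.0 ± 0.19), and Reep1 (-0.93 ± 0.22), with adjusted p from 0.0112 to 0.0367. Reep1 lost its call in 10 of 18 alternatives, among them the loss of any 1 of the 9 libraries, Ahrr in 3 and Map2k6 in 1.

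Nupr1, induced by cell stress, was the 1 called of 24 integrated stress response genes (2.39 to 5.15 CPM against 0.851 to 1.71 CPM, 1.46 ± 0.28, adjusted p = 0.0124). Phlda3, a p53 target, was the 1 called of 17 p53 and apoptosis genes (1.03 ± 0.24, adjusted p = 0.0326), and Ildr2 the 1 called of 20 intercalated disc genes (1.18 ± 0.29, adjusted p = 0.0433). The calls of Phlda3 and Ildr2 were lost in 9 and 11 alternatives. Of all genes 1.97% were called higher, and these single calls are not results about their lists. No gene was called by edgeR among 20 cell cycle genes (median 1.18), 16 heat shock genes (0.00), 14 endothelial markers (0.02), 16 immediate early genes (0.72), 26 ribosomal protein genes (0.14), 3 adipocyte, 4 epicardial or 5 red blood cell genes, where 6, 2, 1, 2, 2, 0, 3 and 0 had an unadjusted p under 0.05, DESeq2 called 1, 0, 0, 1, 0, 0, 1 and 0, and the 9-library fit 4, 0, 0, 4, 3, 0, 1 and 0. Over all genes these counts were 2716 of 16410, 982 of 16359 and 1776 of 14894. Of the adipocyte markers 7 of 10 were too low to test, Adipoq among them.

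**Figure D5:**
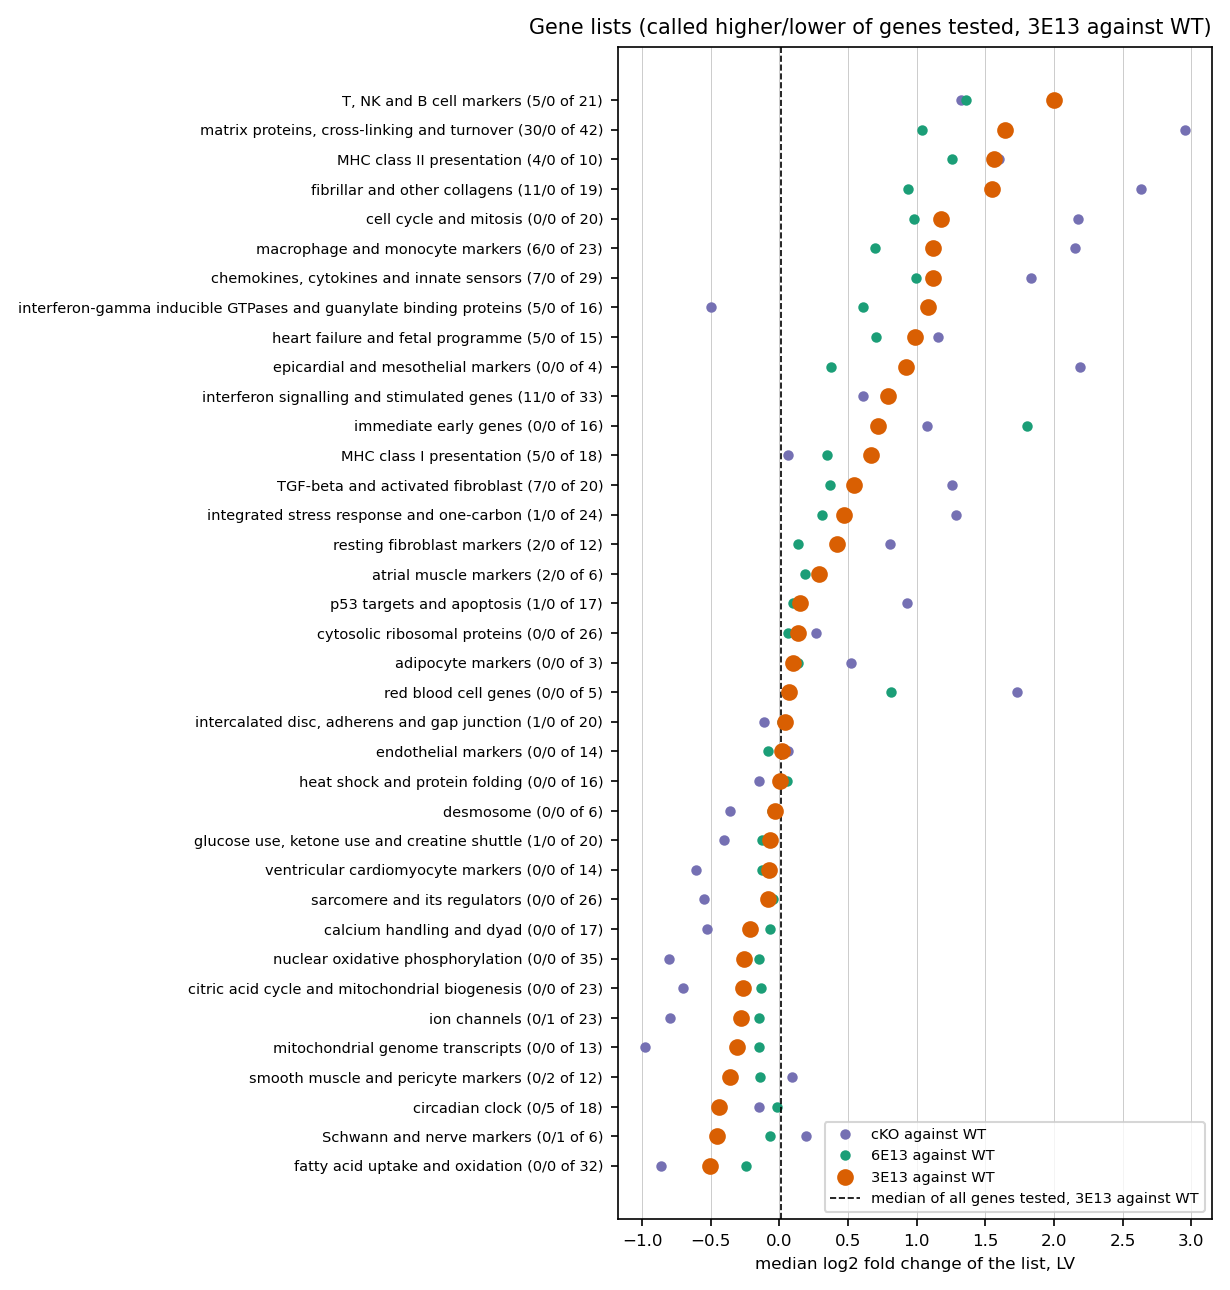
Median log2 fold change against WT in LV (horizontal axis) for each gene list (rows, with the number called higher and lower of the genes tested at 3E13), where large dots are 3E13, small dots are 6E13 and cKO, and the dashed line is the median of all genes. Matrix lists lie near 1.6 at 3E13 and near 3 in cKO, the interferon-inducible GTPases lie above 0 at 3E13 and below 0 in cKO, and fatty acid genes (-0.51), nerve markers (-0.46) and clock genes (-0.44) are the lowest at 3E13.

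Set beside the other groups, the matrix medians were 1.64 at 3E13, 1.04 at 6E13 and 2.96 in cKO, and the collagen medians 1.55, 0.94 and 2.63, all against the same WT libraries. The heart failure medians were closer together, at 0.99, 0.71 and 1.16. For Myh7 the fold change was 3.44 at 3E13, 2.18 at 6E13 (734, 895 and 1600 CPM, adjusted p = 0.154) and 3.56 in cKO. At 6E13 14 genes were called against WT (0.0853%), 13 higher and 1 lower, with 5 matrix genes and 1 collagen among them, and cKO had 5875 (35.8%). Between the doses edgeR called Dbp and Coq10b alone, and 913 genes had an unadjusted p under 0.05, so matrix genes were not shown to differ between the doses.

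RV was fitted alone, over its 12 libraries in 4 groups. In that fit 3E13 (2 libraries, animals 181 and 253) was compared with WT (3 libraries, animals 636, 637 and 647). There 1278 of 17307 genes were called (7.38%), 1004 higher and 274 lower. Matrix proteins were higher in 36 of 42 cases (median 2.26), T, NK and B cell markers in 15 of 20 (median 3.72), and 7 clock genes of 18 were lower and 2 higher. The effect of 3E13 against WT was then compared between ventricles on the 24 libraries of the 12 animals that gave both, blocking on animal. There 0 of 17981 genes were called (0.00%), with 1232 at an unadjusted p under 0.05 and a smallest adjusted p of 0.199. The contrast rests on 2 animals at 3E13 and 3 WT, so the lack of calls does not show that the ventricles were alike. Without the block 0 genes were called and 573 had an unadjusted p under 0.05. The count was 6 without 3E13 animal 181 and 2 without WT animal 647. Myh11 stood at -1.21 in LV and 0.36 in RV, with an adjusted p of 0.689 for the difference.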

How the data were processed

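RNA of left and right ventricle was sequenced, and per the labels reads were assigned to transcripts with Salmon 1.8.0 on GRCm39. The authors deposited 3 values for each gene and library: estimated counts that need not be whole, TPM, and an average transcript length. The labels and the study's methods name both a protocol for poly(A) RNA and a total RNA kit with ribosomal RNA removal. Estimated counts were rounded, genes with low counts were removed (filterByExpr), and 16410 genes were fitted over the 16 LV libraries in 4 groups with TMM scaling and edgeR 4.0.16's quasi-likelihood test (R 4.3.3), with Benjamini-Hochberg adjustment over all genes. The SE is the fold change over the root of F. CPM values use TMM-scaled library sizes. Rows without a gene name held at most 0.000971% of counts and were left out. The mitochondrial share was compared by a two-sided exact permutation test. The alternatives used DESeq2 1.42.0, limma 3.58.1 on log2(TPM + 1), length offsets, sex and left-out libraries. Code was tested on simulated data.

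The members and gene lists were chosen with earlier results of these data known. Genes named are the 15 largest rises and 15 largest falls among called genes with at least 5 mean CPM and no overlap, leading or outlying members of the lists, and genes chosen after their values were seen (Ankrd1, Irgm2, Tgtp1, Tgtp2, Gm12185, H2-K1, Cd3e, Arntl and Coq10b). Some genes that this rule takes are not reported here. Each library came from a different mouse of its group, and the sex read from the data matched the labels in all 9. Promoters are RefSeq's, on GRCm38.p6.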

Additional observations from a re-analysis of the deposited data

Results flagged for a closer look

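In 268 groups of 4 or 5 libraries, 19 held 1 library far from the rest (7.09%), by Dixon's ratio of gap to range. Its cutoff gives about 1 in 20 for independent normal values. Levels of named genes in the same libraries are not such values, so the share cannot be set against chance. Among 3E13 libraries animal 182 was the high one for Lox (127 CPM, the others 10.8 to 26.6), Nppa (279 CPM, the others 130 to 137), Uchl1 (17.0 CPM, the others 4.46 to 6.15), Cthrc1 (3.21 CPM), Pfkp (106 CPM), Des (2040 CPM), Ryr2 (5600 CPM) and the clock gene Ciart (6.26 CPM). It also had the least transgene, and its part in these values was not tested. Amy1 was high in 3E13 animal 253 (4.11 CPM, the others 2.05 to 2.35) and Ccl8 low in animal 252 (1.58 CPM).

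Among WT libraries animal 636 was high for Bgn (257 CPM), Postn (35.2 CPM), Ltbp2 (4.38 CPM), Tgfbr2 (57.2 CPM), Tlr4 (38.9 CPM) and Ccnb2 (0.523 CPM), below the lowest 3E13 library for the first 4. C1qa was low (10.2 CPM) and Trbc2 high (0.378 CPM) in animal 248, and Dio2 low in animal 647 (0.801 CPM).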

How the results depend on the processing

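The count of 411 genes was 1776 with 3E13 and WT alone in the fit, 982 with DESeq2 (670 higher, 312 lower), 152 with limma on log2(TPM + 1) (139 and 13, 91.4% higher against 78.8%), and, in alternatives chosen after seeing the data, 1460 without cKO animal 177 and 1278 in the RV libraries alone. Leaving out 1 of the 9 libraries gave 184 to 346, the lowest without WT 626 or 3E13 181. Other scaling, no low-count filter, length offsets, protein-coding genes and sex gave 331 to 454. Of 88 called genes named here 43 lost their call in none of the 18 alternatives in which they were tested and 0 changed sign, where 83 were tested among protein-coding nuclear genes and 85 with 3E13 and WT alone in the fit. The mitochondrial share differed by -5.06 to -4.18 points when a library was left out. The difference between ventricles was 0 genes, 0 without the replicate block, and 0 to 6 when a library was left out (6 without 3E13 animal 181, 2 without WT animal 647). In LV alone no paired analysis was possible because each animal gave 1 library. Estimated counts carry the error of assigning reads between similar transcripts, which was not analysed here.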
